A study of Mus musculus with 15 samples.

Results

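Mouse Embryonic Fibroblasts (MEFs) treated by interleukin-6 (IL-6) together with its soluble receptor were compared with untreated MEFs, on 3 arrays a group. These 6 arrays were chosen by their labels alone, IL6+IL6R and CTRL, out of 15 arrays in all. The series measured total RNA on 1-color whole-genome Agilent oligonucleotide arrays in 5 groups of 3, namely CTRL, TGFb1, TNFa, IL1b and IL6+IL6R, to compare the response to each cytokine with control. All groups were the same cells, the 3T3 line of Balb/c embryo fibroblasts, an established line derived from 1 clone, with no added allele or transgene named. The treated group received IL-6 at 20 ng/ml with sIL-6Rα, the soluble form of the IL-6 receptor, at 25 ng/ml, and the controls received no cytokine. The other groups received TGFb1 at 5 ng/ml, TNFa at 10 ng/ml or IL1b at 1 ng/ml. The labels give a culture time of 24 or 72 h for the whole series. The study used 24 h for its control, TNFa and TGFb1 arrays and does not describe the IL-6 arrays, whose time is not given separately. Neither receptor alone nor IL-6 alone was among the groups analysed here, so that the agents cannot be told apart. Arrays are called by their group and the number that opens their label. Controls 1, 6 and 11 and IL-6 arrays 3, 8 and 13 came from 3 runs of label numbers, each with 1 array of every group.

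IL-6 acts through gp130, the shared signalling subunit encoded by *Il6st*. A cell that carries little membrane-bound IL-6 receptor can still respond when IL-6 arrives bound to the soluble receptor, a route called trans-signalling. Dimerised gp130 activates the kinases JAK1, JAK2 and TYK2, which phosphorylate the transcription factor STAT3. STAT3 enters the nucleus, binds palindromic sites, and induces acute-phase genes together with its own brake, the inhibitor SOCS3. In fibroblasts, this pathway is known for a place in both inflammation and matrix remodelling.

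The level of a probe is given throughout as the log2 processed signal minus the 75th percentile of that array, a scale on which levels of different probes are not comparable. Probes well above background in a whole group were tested, 29334 of 56605. Calls required a q-value (limma, Benjamini-Hochberg over all probes tested) below 0.05 together with a fold-change of 1.5 or more, up or down. The model held the slide, 1 of 2, and the run of label numbers as blocks. Each array had 48.3 to 54.9% of its probes well above background and no saturated spot, and Pearson's r across probes between arrays of 1 group was 0.977 to 0.993 for control and IL-6. Control 6 and IL-6 array 13 were on slide 2 and the other 4 arrays on slide 1, and the pairs on 1 slide had the highest r of their group, 0.993 for the controls and 0.991 for IL-6. Control 6 and IL-6 array 13 belong to different runs. A difference given below for slide 1 or slide 2 therefore compares arrays of partly different runs, so that slide and run are mixed in it. All 12 fibroblast markers were well above background on all 6 arrays. Of 10 leukocyte markers 5 were on none, among them *Ptprc*, which encodes CD45. The other 5, *Cd68*, *Csf1r*, *Itgam*, *Cd3e* and *Fcer1g*, were on all 6 arrays. Of 8 endothelial markers 7 were on none, and *Pecam1* was on all. *Epcam* and *Cdh1*, defining epithelial markers, were on none either, while the keratin genes *Krt15* and *Krt19* were on all, and the summed signal of the 10 epithelial markers was 0.72 to 1.04 on the control and 0.48 to 0.75 on the IL-6 arrays, whose part in any result was not tested. The summed signal of the fibroblast markers was 10.43 to 10.71 on the control arrays and 10.45 to 10.73 on the IL-6 arrays on the log2 scale, and that of the leukocyte markers 2.80 to 3.92 and 2.89 to 3.98. The control, TNFa and TGFb1 replicates are described by the study as independent experiments. For the IL-6 arrays the sources used here do not state separate cultures, so that their spread may be technical. The p-values measure only the spread between arrays within the groups, after slide and run, pooled over all 15 arrays. In bulk RNA, more cells that express a gene and more RNA per cell cannot be told apart.

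IL-6 with sIL-6Rα changed a small set of transcripts, most of them upwards. Of the 29334 probes, 228 (0.777%) were called, 160 (0.545%) higher and 68 (0.232%) lower. The called probes carried 160 gene names, 101 higher and 59 lower, and 44 probes had no name. At least 4-fold changes were seen in 13 probes, all of them higher, and at least 2-fold changes in 74 higher and 11 lower. In the same model, the counts against the same controls were 320 probes (1.09%) with IL1b, 4513 (15.4%) with TNFa and 6575 (22.4%) with TGFb1. Of the 228 probes, 222 moved in the same direction in 3 of 3 runs, 217 on both slides, and in 183 the 3 IL-6 arrays lay on 1 side of all 3 controls, where 5.18% of all probes tested did so. The 228 were selected on these same arrays, so that such agreement was built in and is no support for the calls.

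**Figure D1:**
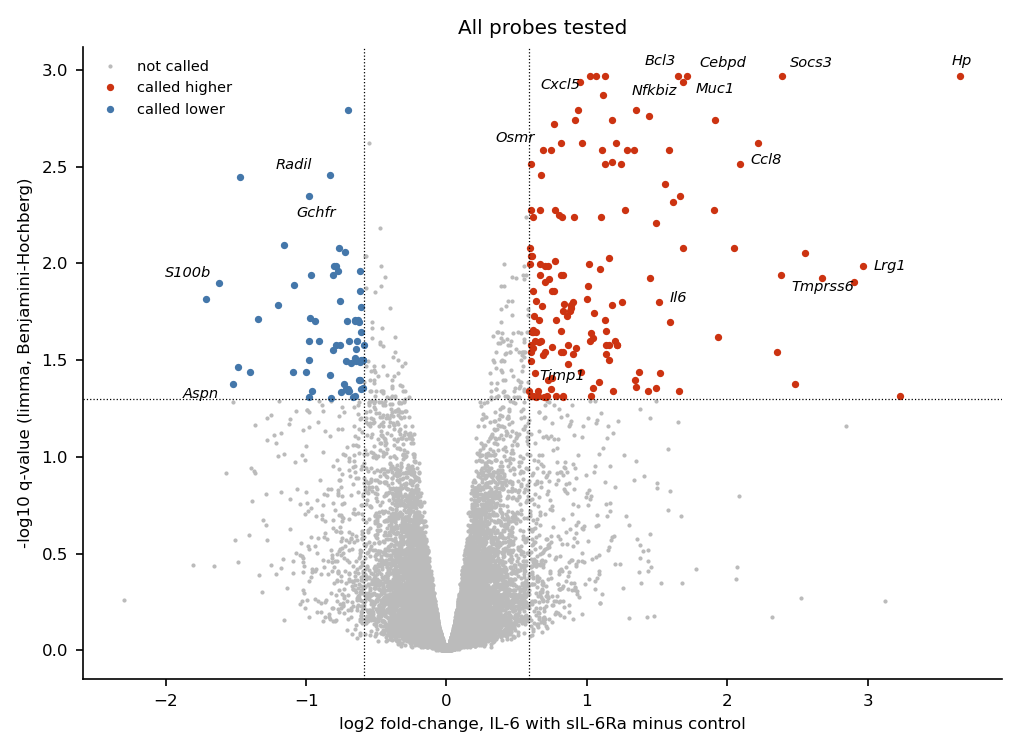
All 29334 probes tested, with the log2 fold-change of IL-6 with sIL-6Rα over control on the x axis and −log10 of the q-value on the y axis. Dotted lines mark q = 0.05 and a fold-change of 1.5. The 160 probes called higher reach 3.66 (*Hp*), whereas no probe called lower passes −2.

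The number of calls rested on the blocks and on the fit over all 15 arrays. In that fit the spread and the slide and run effects were estimated also from the IL1b, TNFa and TGFb1 arrays. With neither slide nor run in the model, 19 probes (15 gene names and 1 unnamed probe) were called, all higher. With the 6 arrays alone none were called, whether with the run, with the slide or with no block (695 probes at an unadjusted p under 0.05 in limma). Both groups had 1 array in every run and 2 arrays on slide 1, so that for the 29256 probes with a value on all 15 arrays the blocks did not move the log2 fold-change and altered its error alone. Leaving out any 1 of the 6 arrays left 65 to 137 calls, the lowest without control 6. A core of 43 probes (33 gene names), 39 higher and 4 lower, was called whichever array was left out. Among these, 10 named genes were also called with neither slide nor run, namely *Hp*, *Socs3*, *Cebpd*, *Muc1*, *Il13ra1*, *Bcl3*, *Mfsd13a*, *Gcnt2*, *Nfkbiz* and *Sbno2*.

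**Figure D2:**
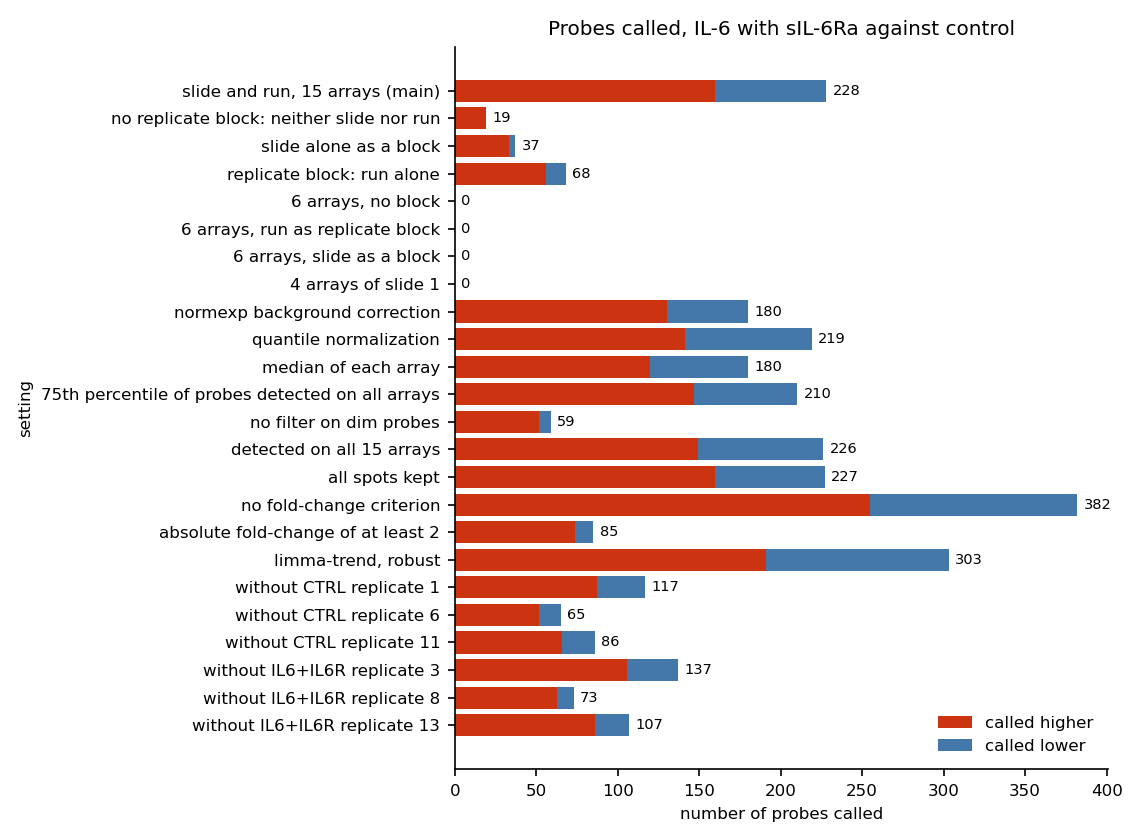
Number of probes called higher (red) and lower (blue) with IL-6 and sIL-6Rα, on the x axis, under each setting, on the y axis. The main setting gives 228, the model without slide and run 19, and the fits of 6 or 4 arrays 0.

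The pathway's own brake rose on every IL-6 array. *Socs3* (NM_007707), whose protein binds gp130 and blocks the JAK kinases, had levels of 2.27, 1.95 and 2.45 on controls 1, 6 and 11 and of 4.33, 5.05 and 4.46 on IL-6 arrays 3, 8 and 13. Every IL-6 array was well above every control, with IL-6 array 8 the highest. The log2 fold-change was 2.39 (SE 0.18, q = 0.00107), or 5.24-fold, and was 2.33 on slide 1 and 2.52 on slide 2. It was called without any block (q = 0.00116) and whichever array was left out (q = 0.000177 to 0.0147). Of the 16 feedback inhibitors of STAT signalling on the list, all tested, *Socs3* was the single one called, higher, and their median log2 fold-change was 0.00 beside −0.01 over all 13528 genes, of which 1.08% were called with 1 probe a gene, 0.68% higher and 0.399% lower. *Socs1*, another SOCS inhibitor, stood at 0.34 (q = 0.18), *Cish* at −0.29 (q = 0.54) and *Socs2*, known for restraining growth hormone signalling, at −0.31 (q = 0.52).

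Among 27 tested members of the list of IL-6 family ligands, receptors and JAK-STAT components, 3 (11.1%) were called higher, beside 0.68% of all genes. None was called lower, and the median was 0.16. *Osmr* encodes the subunit that pairs with gp130 to bind oncostatin M. It had levels of 4.22, 4.31 and 4.49 on controls 1, 6 and 11 and of 4.91, 5.17 and 5.17 on IL-6 arrays 3, 8 and 13, a small difference with no overlap and a log2 fold-change of 0.75 (SE 0.07, q = 0.0026). *Lifr*, the subunit for leukemia inhibitory factor, was called at 0.64 (q = 0.0493), but its groups overlapped, and none of its other probes was called. The IL-6 transcript itself rose: *Il6* levels were −3.27, −2.78 and −2.77 on the controls and −1.92, −0.78 and −1.58 on the IL-6 arrays, again with no overlap, and the log2 fold-change was 1.52 (SE 0.22, q = 0.0159). A second *Il6* probe gave 1.65 (q = 0.0456), a call lost whichever array was left out (q up to 0.226). The arrays measure the cells' own *Il6* mRNA, not the IL-6 protein that was added.

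*Il6st*, which encodes gp130, was not called on its brighter probe, at 0.46 (q = 0.0253) and under 1.5-fold, and a dimmer probe was called at 0.64 (q = 0.0226), a call kept without IL-6 array 3 (q = 0.0443) and lost without each other array (q up to 0.103). *Il6ra*, the membrane receptor, was at −0.20 (q = 0.574), with levels of 1.61, 2.55 and 1.85 on the controls and 1.35, 2.42 and 1.65 on the IL-6 arrays, which overlapped. *Stat3* was at 0.55 (q = 0.0114), under the fold-change required, and its lowest IL-6 array and highest control both stood at 3.96. *Jak3* was at 0.56 (q = 0.0695), and its other probe was called at 0.71 (q = 0.0489), a call lost whichever array was left out (q = 0.0729 to 0.241). *Osmr* was called whichever array was left out (q up to 0.028). *Il6* was called only without IL-6 array 3 (q = 0.0493, and 0.0542 to 0.113 without another array), and *Lifr* in none of these fits (q = 0.0917 to 0.241).

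**Figure D3:**
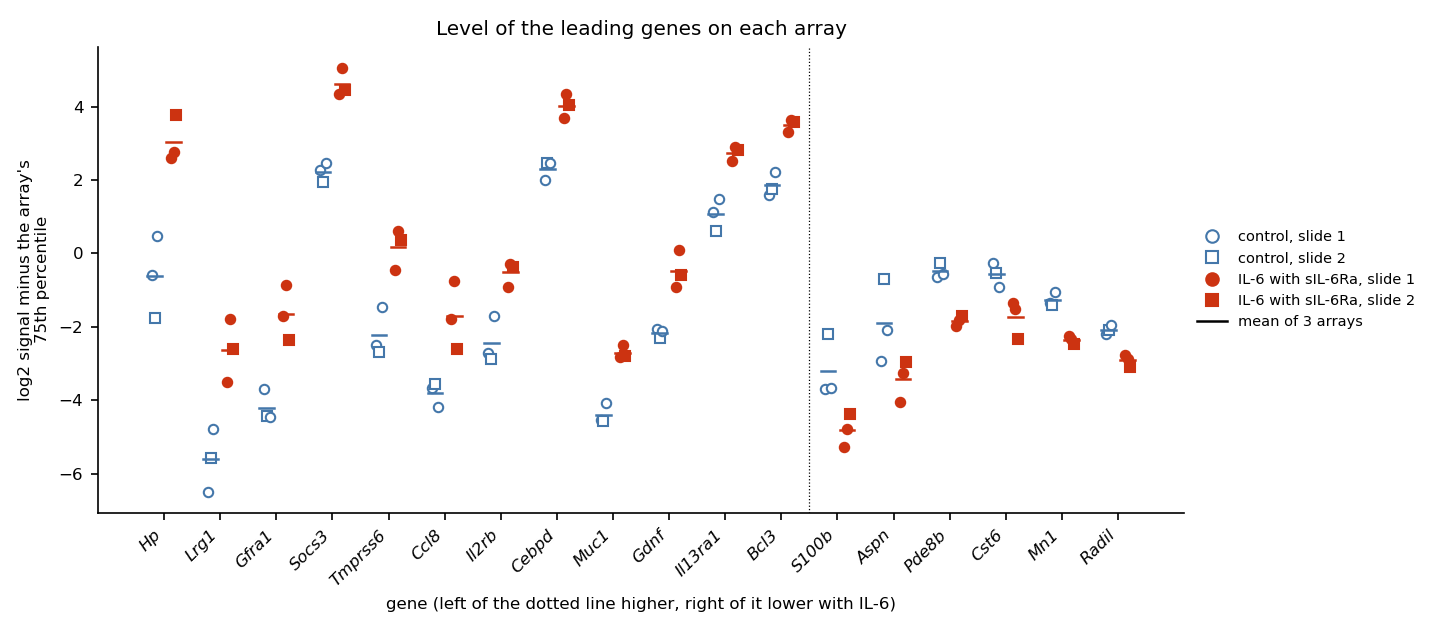
Levels of 12 genes called higher and 6 called lower with IL-6 on each of the 6 arrays. The y axis is the log2 signal minus the array's 75th percentile, each point is 1 array, circles and squares are slides 1 and 2, and lines are means of 3 arrays. For each of the 18 genes the 3 IL-6 arrays lie on 1 side of the 3 controls, narrowly for *Aspn* (−2.95 against −2.92).

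Of 36 STAT3 target genes, all tested, 9 were called higher and none lower, which is 25% beside 0.68% of all genes, and the median was 0.35. The list was gathered from genes known as STAT3 targets in other cells. As for every list here, its members were chosen with earlier results of these data known, so that this share is no test of the pathway. *Cebpd*, the transcription factor C/EBPδ of the acute-phase response, had levels of 2.00, 2.47 and 2.46 on controls 1, 6 and 11 and of 3.69, 4.34 and 4.04 on IL-6 arrays 3, 8 and 13, with a log2 fold-change of 1.71 (SE 0.11, q = 0.00107). *Muc1*, a membrane mucin, had levels of −4.53, −4.58 and −4.07 on the controls and −2.83, −2.50 and −2.79 on the IL-6 arrays, a log2 fold-change of 1.69 (SE 0.13, q = 0.00116). Both genes were separated by over 1 log2 unit between the highest control and the lowest IL-6 array. *Bcl3*, a nuclear partner of NF-κB, had levels of 1.59, 1.77 and 2.21 on the controls and 3.32, 3.63 and 3.58 on the IL-6 arrays, with a log2 fold-change of 1.65 (SE 0.12, q = 0.00107). *Il4ra*, the subunit shared by the receptors of IL-4 and IL-13, had levels of 1.44, 0.12 and 1.28 on the controls and 2.66, 2.57 and 2.27 on the IL-6 arrays, a log2 fold-change of 1.56 (SE 0.16, q = 0.00391). In *Il4ra* control 6 was far below the other controls, and the difference was 1.26 on slide 1 and 2.15 on slide 2.

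The other 5 were called at smaller changes. *Nfil3*, a basic leucine zipper repressor, was at 0.91 (q = 0.00576), *Bcl6*, a zinc finger repressor, at 0.86 (q = 0.0188), *Junb*, an AP-1 subunit, at 0.80 (q = 0.0056), *Pim1*, a survival kinase, at 0.67 (q = 0.0253), and *Timp1*, an inhibitor of matrix metalloproteases, at 0.60 (q = 0.032). Among these 5, the slides differed most in *Timp1* and *Bcl6*, where slide 2, with 1 array of each group, gave 1.23 against 0.28 and 1.44 against 0.56 on slide 1. At the other end of the list, *Klf4* was at −0.58 (q = 0.066), *Bcl2* at −0.41 (q = 0.07) and *Ccnd1*, which encodes cyclin D1, at −0.34 (q = 0.058). *Cebpd*, *Muc1*, *Bcl3* and *Il4ra* were called whichever array was left out (q up to 0.0311). *Junb* and *Nfil3* each lost the call without control 6 (q = 0.0525 for both). *Bcl6* lost it without control 6 (q = 0.125), control 11 (q = 0.091), IL-6 array 8 (q = 0.0574) or IL-6 array 13 (q = 0.0598), and *Pim1* and *Timp1* lost it in each of the 6 fits that left out an array, with q up to 0.156 and 0.173.

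STAT dimers bind a palindrome, and the promoters of the leading feedback and STAT3 target genes are shown because these genes rose together. The sequences are the 250 bases before the gene start in RefSeq on build GRCm38.p6, 5′ to 3′ on the strand of the gene, with matches to the STAT palindrome TTCNNNGAA, searched on both strands, in capitals. *Socs3* (chr11:117969367-117969616, minus strand), *Muc1* (chr3:89228806-89229055, plus strand) and *Bcl3* (chr7:19822756-19823005, minus strand) are the called members with the largest rises that have an entry. *Il4ra*, the next by rise, has no match and is not printed. The second *Bcl6* window (chr16:23981284-23981533, minus strand), of a gene with a smaller rise, is printed instead and was chosen after the search for its 3 matches.
Socs3: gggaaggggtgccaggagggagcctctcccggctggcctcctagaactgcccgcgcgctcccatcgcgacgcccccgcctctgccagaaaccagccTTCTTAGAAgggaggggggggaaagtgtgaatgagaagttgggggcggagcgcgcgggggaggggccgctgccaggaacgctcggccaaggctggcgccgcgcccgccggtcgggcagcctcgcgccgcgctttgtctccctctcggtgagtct
Muc1: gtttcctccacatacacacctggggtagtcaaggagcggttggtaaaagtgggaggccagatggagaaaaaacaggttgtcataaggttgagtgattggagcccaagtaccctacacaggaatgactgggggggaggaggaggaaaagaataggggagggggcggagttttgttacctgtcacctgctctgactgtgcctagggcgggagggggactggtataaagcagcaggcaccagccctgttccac
Bcl3: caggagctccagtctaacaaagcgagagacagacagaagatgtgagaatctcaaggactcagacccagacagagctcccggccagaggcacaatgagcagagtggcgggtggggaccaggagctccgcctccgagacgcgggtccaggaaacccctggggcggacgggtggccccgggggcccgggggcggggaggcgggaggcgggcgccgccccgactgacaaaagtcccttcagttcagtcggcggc
Bcl6: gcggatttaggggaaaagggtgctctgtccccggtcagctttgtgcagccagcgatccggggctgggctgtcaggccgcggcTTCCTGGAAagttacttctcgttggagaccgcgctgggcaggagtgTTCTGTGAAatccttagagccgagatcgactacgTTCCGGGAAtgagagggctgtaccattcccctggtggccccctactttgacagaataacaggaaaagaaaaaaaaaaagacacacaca
The *Socs3* match begins 154 bases before the start, and the matches of the second *Bcl6* window 168, 122 and 88 bases before it. Another *Bcl6* window held 1 match, 118 bases before its start, and the windows of *Muc1*, *Bcl3*, *Il4ra*, *Nfil3*, *Junb*, *Pim1* and *Timp1* held none. A match is not evidence of binding, and no match says only that these letters are not in the window.

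Over all 32851 windows of the table, which run from 250 bases before to 50 after a start, 8.3% held the palindrome, and 7.16% of the 13665 windows of genes tested here. It was in 11 of the 108 windows (10.2%) of genes called higher, from 8 of 74 genes with an entry, and in 3 of 51 (5.88%) of genes called lower, all 3 of them overlapping windows of *Pde8b*, 1 of 39 genes with an entry. An interferon response element, GAAANNGAAA, was in 3.44% of all windows, 3.07% of those of genes tested, 7 of 108 (6.48%) called higher and 2 of 51 (3.92%) called lower. A GAA can be part of a match to either motif. These shares are a description of the windows and were not tested.

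Acute-phase and antimicrobial proteins held the largest rise of all. Of 38 members with a probe, 18 passed the background filter. Of these, 5 (27.8%) were called higher, beside 0.68% of all genes, and none lower. *Hp* (NM_001329965), which encodes haptoglobin, the plasma protein that binds free hemoglobin, had levels of −0.58, −1.76 and 0.48 on controls 1, 6 and 11 and of 2.59, 2.76 and 3.77 on IL-6 arrays 3, 8 and 13. The groups lay far apart, with control 6 the lowest and IL-6 array 13 the highest, both of slide 2. Its log2 fold-change was 3.66 (SE 0.27, q = 0.00107), or 12.6-fold, and was 2.73 on slide 1 and 5.52 on slide 2. *Lrg1*, a secreted leucine-rich glycoprotein of the acute phase, had levels of −6.49, −5.56 and −4.77 on the controls and −3.51, −1.80 and −2.61 on the IL-6 arrays, a log2 fold-change of 2.97 (SE 0.38, q = 0.0103). Control 1 was not well above background for *Lrg1*, so that its value there is a reading of background.

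*Mt2*, a metal-binding metallothionein, rose by 1.35 (q = 0.0437), *Ptx3*, the long pentraxin of innate defense, by 1.16 (q = 0.0263), and *Slc39a14*, the zinc and iron importer ZIP14, by 0.71 (q = 0.0125). The brighter probe of *Lcn2*, which encodes the iron-siderophore binder lipocalin 2, missed the threshold at 2.85 (q = 0.0691). Its levels were −4.37, −1.59 and −3.48 on the controls and −1.71, 1.91 and −1.10 on the IL-6 arrays, which overlapped, and the difference was 4.02 on slide 1 and 0.49 on slide 2. A dimmer *Lcn2* probe was called at 3.23 (q = 0.0488), with 4.66 on slide 1 and 0.36 on slide 2, and this call was lost whichever array was left out (q = 0.0917 to 0.18). *Saa3*, a serum amyloid A gene, was at 1.44 (q = 0.39), and *Saa1* at −0.05 (q = 0.97). *Hp* was called whichever array was left out (q up to 0.0115). *Lrg1* lost the call without control 1 (q = 0.0507) or control 6 (q = 0.0763), *Slc39a14* without control 6 (q = 0.0565), IL-6 array 8 (q = 0.0708) or IL-6 array 13 (q = 0.0598), *Ptx3* in each such fit but that without IL-6 array 13 (q = 0.0789 to 0.163), and *Mt2* in each of the 6 fits (q = 0.0628 to 0.226). None of 17 tested complement genes was called, with a median of −0.01 and the lowest p at *Cfd* (−1.07, q = 0.0582) and *Cfb* (1.35, q = 0.105). The same *Cfd*, complement factor D, is also a gene of fat cells, and a dimmer probe of it was called at −1.09 (q = 0.0365), a call kept without control 6 (q = 0.0493) and lost without each other array (q up to 0.142).

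Cytokine receptors outside the IL-6 family and a neurotrophic ligand with its receptor were among the 15 largest rises. *Il13ra1*, the partner of *Il4ra* in the receptor for IL-13, had levels of 1.14, 0.60 and 1.47 on controls 1, 6 and 11 and of 2.50, 2.90 and 2.81 on IL-6 arrays 3, 8 and 13, a log2 fold-change of 1.67 (SE 0.18, q = 0.00451). *Il2rb*, the beta subunit of the IL-2 and IL-15 receptors, had levels of −2.70, −2.88 and −1.71 on the controls and −0.91, −0.28 and −0.37 on the IL-6 arrays, a log2 fold-change of 1.91 (SE 0.17, q = 0.00181). In both genes all IL-6 arrays stood above all controls. *Gdnf*, glial cell line-derived neurotrophic factor, had levels of −2.06, −2.30 and −2.10 on the controls and −0.92, 0.10 and −0.60 on the IL-6 arrays, with a log2 fold-change of 1.68 (SE 0.21, q = 0.00834). *Gfra1*, the receptor that binds it, had levels of −3.71, −4.44 and −4.45 on the controls and −1.72, −0.87 and −2.37 on the IL-6 arrays, with a log2 fold-change of 2.55 (SE 0.32, q = 0.00887). The IL-6 arrays of both genes were widely spread, highest on IL-6 array 8, and still clear of the controls.

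*Tmprss6*, the membrane protease that restrains hepcidin in liver, had levels of −2.48, −2.70 and −1.45 on the controls and −0.46, 0.61 and 0.37 on the IL-6 arrays, a log2 fold-change of 2.38 (SE 0.32, q = 0.0114). Of the rest of the 15, *Smim3*, well above background on 1 of 3 controls, was at 2.35 (q = 0.0286) and the non-coding 1600025M17Rik at 2.22 (q = 0.00241). *Dppa1* and C430002N11Rik were not well above background on any control, and their rises were at least 2.79-fold and 2.46-fold, with fitted values of 2.90 (q = 0.0125) and 2.48 (q = 0.042). These fitted values and q rest on background readings in the controls. The IL-6 arrays alone were enough to pass both genes through the background filter. *Il13ra1*, *Il2rb* and 1600025M17Rik were called whichever array was left out. Without control 6 the calls of *Gdnf* (q = 0.0648), *Gfra1* (q = 0.0679), *Tmprss6* (q = 0.0861), *Dppa1* (q = 0.0936), *Smim3* (q = 0.161) and C430002N11Rik (q = 0.212) were lost. Without control 11 those of *Gfra1* (q = 0.052), *Tmprss6* (q = 0.0556), *Dppa1* (q = 0.0688), *Smim3* (q = 0.103) and C430002N11Rik (q = 0.111) were lost. Of these, *Dppa1* was also lost without IL-6 array 13 (q = 0.0598), *Smim3* without each of the IL-6 arrays (q = 0.0774 to 0.126), and C430002N11Rik without each of the 6 arrays (q from 0.0698).

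Of 19 tested chemokines, 2 (10.5%) were called higher beside 0.68% of all genes, none was called lower, and the median was 0.38. *Ccl8*, an attractant of monocytes, had levels of −3.68, −3.56 and −4.19 on controls 1, 6 and 11 and of −1.80, −0.74 and −2.61 on IL-6 arrays 3, 8 and 13, a log2 fold-change of 2.09 (SE 0.21, q = 0.00307). The IL-6 arrays of *Ccl8* differed among themselves more than the controls did, and the difference was 2.67 on slide 1 and 0.94 on slide 2. *Cxcl5*, an attractant of neutrophils, had levels of 1.25, 1.68 and 1.12 on the controls and 2.16, 2.74 and 2.49 on the IL-6 arrays, a tighter pair of groups with a log2 fold-change of 1.11 (SE 0.09, q = 0.00136). *Cxcl1* (0.65, q = 0.136) and *Ccl2* (0.44, q = 0.277) were not called. Of 21 tested NF-κB subunits, inhibitors and adhesion targets, *Nfkbiz*, the nuclear inhibitor-like protein IκBζ, was the one called (4.76% of the list), at 1.35 (q = 0.00161), with a median of 0.07 over the list. *Icam1*, an adhesion receptor for leukocytes, was at 1.10 (q = 0.0591). *Ccl8*, *Cxcl5* and *Nfkbiz* were called whichever array was left out (q up to 0.0235).

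Of 38 interferon-stimulated genes tested, 36 (94.7%) had a positive log2 fold-change, beside 47.6% of all genes, and the median was 0.35. *Gbp2*, a guanylate-binding GTPase, was the one called (2.63%, beside 0.68% of all genes called higher), at 1.05 (q = 0.0181). Its call was lost without control 1 (q = 0.0776), control 6 (q = 0.124), IL-6 array 8 (q = 0.0767) or IL-6 array 13 (q = 0.0593), and close paralogs may share its probe. In 2 of the 38 genes (5.26%) all IL-6 arrays were above all controls, beside 2.93% of all genes. *Zbp1* was at 1.34 (q = 0.13) and *Gbp5* at 1.37 (q = 0.39).

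**Figure D4:**
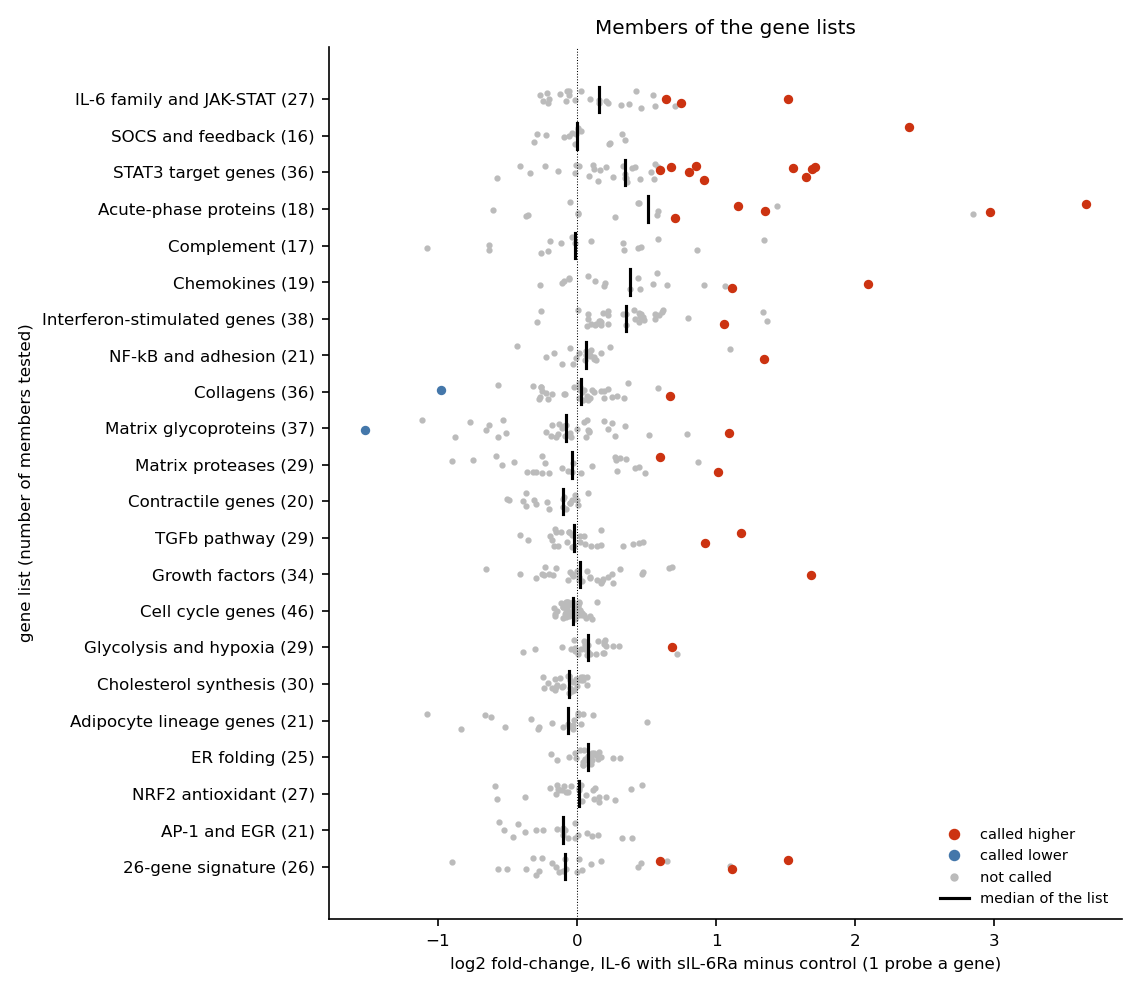
Log2 fold-change of IL-6 with sIL-6Rα over control (x axis) for each tested member of 22 gene lists (y axis, number tested in parentheses), 1 probe a gene. Red and blue points were called higher and lower, grey points were not called, and black bars are medians. The called points gather in the lists of STAT3 targets (9 of 36) and acute-phase proteins (5 of 18), where 0.68% of all genes were called higher. The 46 cell cycle genes lie between −0.17 and 0.14.

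Matrix genes moved in both directions and few were called. Of 36 tested collagens and collagen-processing enzymes, *Col12a1*, a fibril-associated collagen, was called higher at 0.67 (q = 0.0101) and *Col11a1*, a minor fibrillar collagen, lower at −0.98 (q = 0.0489). That is 2.78% called higher, beside 0.68% of all genes, and 1 gene called lower, where 0.399% of all genes were. *Col11a1* was well above background on 1 of 3 IL-6 arrays, its groups overlapped, and the difference was −0.03 on slide 1 and −2.88 on slide 2. *Col1a1*, the main fibrillar collagen, was at −0.09 (q = 0.772), with overlapping groups. Of 37 matrix glycoproteins and proteoglycans, *Has2*, the hyaluronan synthase, was called higher (2.7% of the list) at 1.09 (q = 0.0107). Its levels were 1.53, 0.58 and 1.32 on controls 1, 6 and 11 and 2.23, 2.07 and 2.41 on IL-6 arrays 3, 8 and 13. All IL-6 arrays were above all controls for *Has2*, with control 6 the lowest. *Aspn*, asporin, a small leucine-rich proteoglycan, was called lower at −1.52 (q = 0.042). Of 29 proteases and inhibitors, *Adamts4*, an aggrecanase, was called higher at 1.02 (q = 0.0101) beside *Timp1* (together 6.9% of the list).

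No contractile gene of 20 tested was called, with a median of −0.10, and *Acta2*, which encodes α-smooth muscle actin, was at −0.51 (q = 0.144) and *Myl9* at −0.49 (q = 0.099). Of 29 genes of the TGFb pathway, *Tgfbi*, a secreted matrix adaptor, was called at 1.18 (q = 0.00299) and *Fst*, the activin antagonist follistatin, at 0.92 (q = 0.0273), both higher. These are 6.9% of the list, beside 0.68% of all genes. *Tgfbi* was called whichever array was left out. Without control 6, *Adamts4* (q = 0.0563), *Col12a1* (q = 0.0734), *Has2* (q = 0.0795), *Fst* (q = 0.163), *Aspn* (q = 0.22) and *Col11a1* (q = 0.241) were no longer called. Without control 11 the same held for *Adamts4* (q = 0.0556), *Col12a1* (q = 0.0556), *Has2* (q = 0.0605), *Fst* (q = 0.0927), *Aspn* (q = 0.0949) and *Col11a1* (q = 0.172). *Adamts4* was further lost without IL-6 array 8 (q = 0.0647) and *Has2* without IL-6 array 13 (q = 0.0555). *Col12a1* kept q = 0.0306 without IL-6 array 8 but fell under 1.5-fold. *Col11a1* remained called only without control 1, *Fst* only without IL-6 array 13, and *Aspn* in none of these fits.

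Another 8 lists held 233 tested genes, of which 2 (0.858%) were called, a share near the 1.08% of all genes. None of 46 tested cell cycle genes was called, and their log2 fold-changes ran from −0.17 to 0.14, with *Ccnd3*, cyclin D3, at 0.14 (q = 0.417) and *Ccnb1*, cyclin B1, at −0.15 (q = 0.283). In 29 glycolysis and hypoxia genes, *Hk2*, a hexokinase, was called higher at 0.68 (q = 0.0167), a call lost without control 6 (q = 0.092), control 11 (q = 0.0813), IL-6 array 8 (q = 0.0843) or IL-6 array 13 (q = 0.0687). *Gdnf* was the one called of 34 growth factors and prostaglandin enzymes. No call was made among 30 genes of cholesterol and fatty acid synthesis (*Mvd* −0.21, q = 0.385, and *Dhcr7* −0.24, q = 0.316), 21 adipocyte genes (*Cidec* −0.62, q = 0.0717), 25 genes of the unfolded protein response (*Trib3* 0.31, q = 0.172, and *Chac1* 0.26, q = 0.371), 27 NRF2 targets (*Gclm* 0.39, q = 0.0244, and *Slc7a11* 0.47, q = 0.0736) or 21 AP-1 and EGR factors (*Egr4* −0.46, q = 0.0541, and *Egr2* −0.42, q = 0.075). Their medians lay between −0.10 and 0.08.

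The study's 26-gene signature of fibroblast polarization was drawn up by its authors from the TNFa, TGFb1 and control arrays together with protein detection and pathway membership, and the controls are shared with the present comparison. *Il6* and *Timp1* were among the conventional markers included whatever those data showed. Of its 26 genes, *Cxcl5*, *Il6* and *Timp1* were called higher with IL-6 and none lower, and the median was −0.08. Over all genes, 0.68% were called higher and 0.399% lower. *Cxcl5* was called whichever array was left out. The call of *Timp1* was lost in each of the 6 fits that left out an array. That of *Il6* was lost in each but the fit without IL-6 array 3 (q = 0.0493). The other chemokine and acute-phase genes were *C3* (0.46, q = 0.772), *Sod2* (0.10, q = 0.796) and *Tnf* (0.02, q = 0.978), beside *Cxcl1*, *Ccl2* and *Icam1* above. On the matrix side, *Col7a1* was at −0.57 (q = 0.0339), under 1.5-fold, with all IL-6 arrays below all controls. *Col5a1* (−0.28, q = 0.295), *Col5a3* (−0.25, q = 0.75), *Fn1* (−0.15, q = 0.572), *Dcn* (−0.08, q = 0.911), *Loxl3* (0.17, q = 0.696), *Pcolce2* (0.04, q = 0.981), *Jag1* (−0.13, q = 0.766), *Mmp3* (−0.31, q = 0.53) and *Tgfb1* (−0.18, q = 0.36) were not called. Neither were the integrins *Itga5* (−0.00, q = 0.999), *Itga11* (−0.10, q = 0.9) and *Itgb3* (−0.37, q = 0.114), nor *Tagln* (−0.29, q = 0.582). *Tfpi2* was not well above background on any of the 6 arrays, and no fold is given.

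The decreases were fewer and smaller than the rises, and 4 of the 68 probes called lower, beside 39 of the 160 called higher, were called whichever array was left out. Of the 59 genes called lower, the 15 with the largest falls and no overlap ran from −1.62 to −0.80. *S100b*, a calcium-binding protein, had levels of −3.71, −2.20 and −3.67 on controls 1, 6 and 11 and of −5.27, −4.79 and −4.38 on IL-6 arrays 3, 8 and 13, a log2 fold-change of −1.62 (SE 0.22, q = 0.0127). Control 6 was the highest, only 2 of 3 IL-6 arrays were well above background, and the difference was −1.34 on slide 1 and −2.18 on slide 2. *Mn1*, a transcriptional regulator, had levels of −1.35, −1.40 and −1.05 on the controls and −2.26, −2.34 and −2.46 on the IL-6 arrays, a log2 fold-change of −1.09 (SE 0.15, q = 0.013). *Pde8b*, a phosphodiesterase that degrades cyclic AMP, had levels of −0.65, −0.27 and −0.55 on the controls and −1.98, −1.83 and −1.70 on the IL-6 arrays, a log2 fold-change of −1.34 (SE 0.20, q = 0.0194). *Mn1* and *Pde8b* fell by nearly the same amount on both slides. *Cst6*, the protease inhibitor cystatin M, had levels of −0.27, −0.54 and −0.91 on the controls and −1.35, −1.51 and −2.33 on the IL-6 arrays, with a log2 fold-change of −1.16 (SE 0.14, q = 0.008).

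*Radil*, an effector of the GTPase Rap1, was called lower at −0.83 (q = 0.00352) and *Gchfr*, the feedback regulator of GTP cyclohydrolase, at −0.98 (q = 0.00451), and both were called whichever array was left out (q up to 0.0493). *Lrrc15*, a membrane protein of activated fibroblasts, was at −1.20 (q = 0.0164), *Treml1* at −1.48 (q = 0.0344), *Fbxo24* at −0.96 (q = 0.0456), *Tmem119* at −0.93 (q = 0.0199), *Ablim1*, an actin-binding protein, at −0.91 (q = 0.0253), *Spon2*, spondin 2, at −0.82 (q = 0.0498), *Flt1*, a receptor for vascular endothelial growth factor, at −0.81 (q = 0.028) and *Pear1* at −0.80 (q = 0.0104). *S100b* lost its call without control 1 (q = 0.0578) or control 6 (q = 0.0942), *Cst6* without control 6 (q = 0.0525), *Mn1* without control 6 (q = 0.0631), IL-6 array 3 (q = 0.0537) or IL-6 array 8 (q = 0.0763), and *Pear1* without control 6 (q = 0.0753), control 11 (q = 0.0552) or IL-6 array 8 (q = 0.0655). Every other gene of this paragraph, and *Pde8b*, was called in at most 1 of the 6 fits that left out an array, with q up to 0.238. No fall was called without slide and run, where the lowest q among these genes was 0.0545, for *Mn1*.

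The 15 arrays allowed each gene to be compared directly between IL-6 and the other cytokines. The doses differ, and the same IL-6 arrays enter the comparison with control and with each cytokine. Of the 101 genes called higher than control, 53 were also called above the IL1b arrays, 64 above TNFa and 62 above TGFb1, beside 0.743%, 7.4% and 12% of all probes. The 101 were selected as high on these same IL-6 arrays, so that an excess over all probes was built in and is no support. For each gene the called probe with the largest rise was counted. Against all 3 at once 34 genes were called above, or 18 with neither slide nor run in these comparisons. The 34 include *Socs3*, *Muc1*, *Osmr* and the receptor genes *Il4ra*, *Il13ra1* and *Il2rb*, and also *Lrg1*, *Tmprss6*, *Tgfbi* and *Col12a1*. Another of the 34 was *Dppa1*, which was not well above background on any control. Of the 101, 2 were called below IL1b, 8 below TNFa and 14 below TGFb1, where 1.02%, 6.67% and 9.41% of all probes were. In none of these comparisons was the share of the 101 under that of all probes.

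*Socs3* was higher on the IL-6 arrays than on the IL1b arrays by 1.78 (q = 0.00111), than on the TNFa arrays by 2.58 (q = 1.3e-05) and than on the TGFb1 arrays by 2.54 (q = 8.1e-06), all log2 differences. *Muc1* was higher by 1.92 (q = 0.000178), 2.82 (q = 1.73e-06) and 3.28 (q = 3.98e-07) in the same order, *Il4ra* by 1.41 (q = 0.00224), 1.86 (q = 5.11e-05) and 1.34 (q = 0.000208), and *Osmr* by 0.67 (q = 0.00148), 1.16 (q = 7.08e-06) and 1.89 (q = 3.03e-07). For *Socs3* the values against control were 0.61 (q = 0.152) with IL1b, −0.19 (q = 0.46) with TNFa and −0.15 (q = 0.531) with TGFb1, none of them called. *Osmr* was lower than control with TGFb1, at −1.14 (q = 4.14e-06).

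Other leading genes were not called above every other cytokine. *Hp* differed by 0.02 (q = 0.992) between IL-6 and IL1b, while it was higher with IL-6 than with TNFa by 2.33 (q = 0.000264) and than with TGFb1 by 1.41 (q = 0.00269). *Cebpd* differed by 0.28 (q = 0.248) from IL1b, and was higher with IL-6 than with TNFa by 3.18 (q = 4.44e-07), where it was at −1.47 (q = 1.66e-05) against control. *Il6* differed by 0.02 (q = 0.992) from IL1b. *Cxcl5* was lower with IL-6 than with IL1b, at −4.01 (q = 1.34e-07), and than with TNFa, at −1.81 (q = 2.21e-06), and *Ccl8* was lower than with TNFa, at −2.11 (q = 0.000104). *Gfra1* differed by 0.16 (q = 0.718) from TGFb1, and *Gdnf* by −0.16 (q = 0.596) from TNFa. A q above 0.05 does not show that 2 cytokines act alike. Over the 38 interferon-stimulated genes, 28 were called lower with IL-6 than with TNFa and 31 higher than with TGFb1, beside 6.67% and 12% of all probes. Against control, 1 of the 38 was called with IL-6, while 31 were called higher with TNFa and 23 lower with TGFb1. Of all 13528 genes, with 1 probe a gene, 1069 were called higher with TNFa and 1854 lower with TGFb1 against control.

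**Figure D5:**
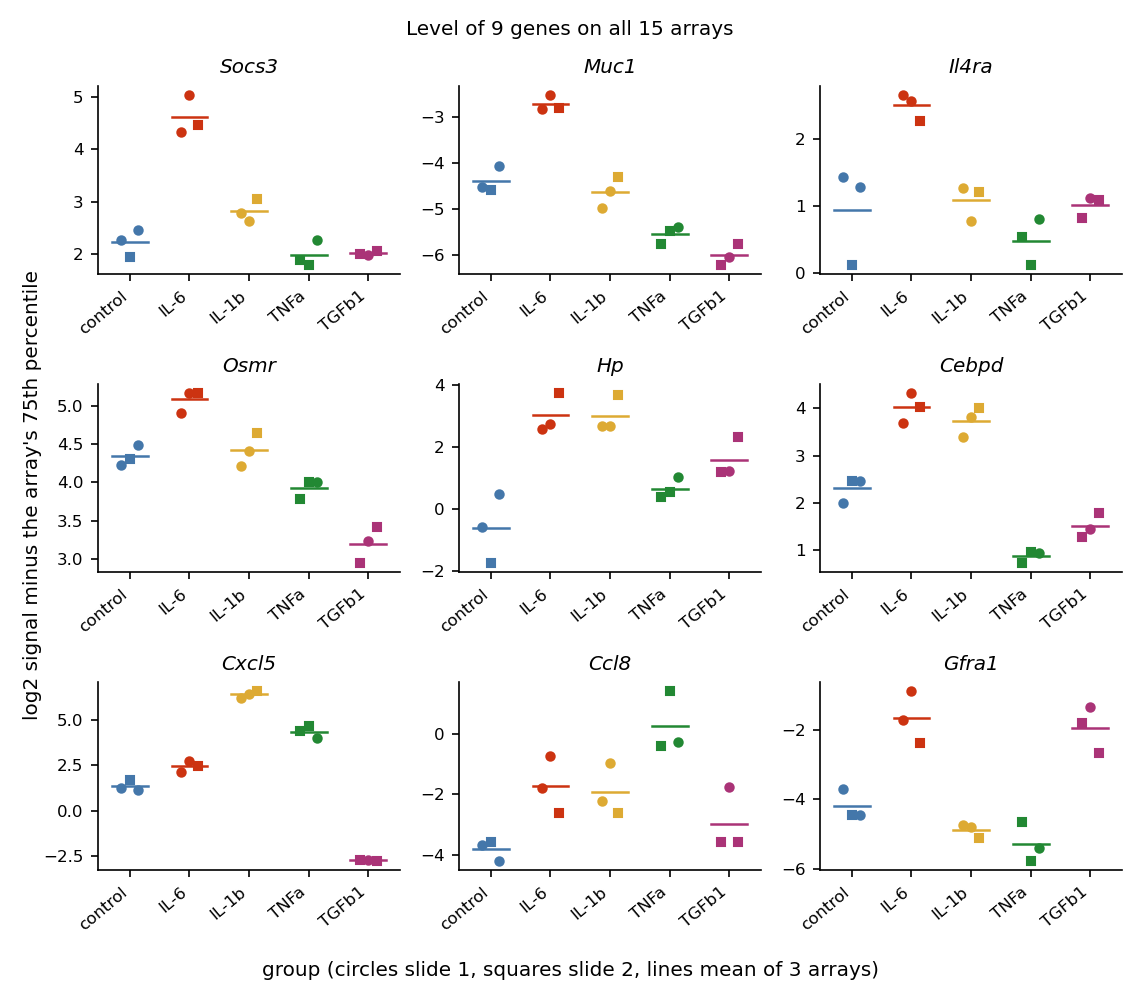
Levels of 9 genes on all 15 arrays, with the group on the x axis and the log2 signal minus the array's 75th percentile on the y axis. Points are arrays, circles slide 1 and squares slide 2, and lines are means of 3 arrays. *Socs3*, *Muc1*, *Il4ra* and *Osmr* are highest on the 3 IL-6 arrays, *Hp* and *Cebpd* are near the IL1b arrays, and *Cxcl5* and *Ccl8* are highest with IL1b and TNFa, respectively.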

How the data were processed

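RNA of 15 samples of 3T3 MEFs was hybridised to 1-color Agilent mouse arrays and scanned, and the authors extracted the spots with Feature Extraction 10.7.3.1, per the file headers. The deposited files give the processed signal of each spot as an intensity, already corrected for background. The deposited value table held the same intensity values. Control spots and spots with an outlier flag were left out here, log2 was taken, each array's 75th percentile was taken off, and spots of a probe were averaged. A probe entered the test if all 3 arrays of some group had it well above background. Such values carry no read depth, and their precision is limited by 3 arrays a group.

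Groups came from the labels. One linear model of group, slide and run of label numbers (1 to 5, 6 to 10, 11 to 15) over 15 arrays, with 7 residual degrees of freedom, was fitted in limma 3.58.1 in R 4.3.3 with eBayes, and q-values are Benjamini-Hochberg adjusted p-values over the 29334 probes. The pairing by run is not stated by the labels and was set as a block for this comparison. In a check with the slide removed, deviations from the group means correlated over 0.1 in 30 of 30 pairs of one run (r = 0.11 to 0.67). The same held in 2 of 60 pairs of different runs, and without removing the slide in 12 of 30 and 28 of 60. Deviations within a group cancel, so that the counts for one run and for different runs are not independent. The fit was tested on simulated data with known changes. For a gene with several probes, the probe brightest on average is given, unless another is named. The counts of genes above or below other cytokines use the called probe with the largest rise. Named genes are the 15 largest rises and falls among called genes with no overlap between groups, all called members of the IL-6 family, feedback, STAT3 and acute-phase lists, up to 4 called members of every other list or the 2 with the lowest p where none was called, and the 26-gene signature. Named too were *Il6*, *Il6ra*, *Il6st*, *Stat3* and *Socs3* whether called or not. Every gene called with neither slide nor run and further genes chosen after their values were seen were added. The members and lists were chosen with earlier results of these data known. Alternatives were other blocks, background corrections, scalings and filters, the 6 arrays alone, and each array left out. Promoters came from RefSeq (GRCm38.p6).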

Additional observations from a re-analysis of the deposited data

How the results depend on the processing

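With the slide and run as blocks in the fit of 15 arrays 228 probes were called. The blocks, and the IL1b, TNFa and TGFb1 arrays in that fit, decided most of them. With neither slide nor run, 19 were called (19 higher and 0 lower). With the slide alone 37 were called (33 and 4), and with the run alone as replicate block 68 (56 and 12). Fits of the 6 arrays with no block, with the run or with the slide, and of the 4 arrays of slide 1, gave 0 calls in either direction, with 695, 1131, 1099 and 1811 probes at an unadjusted p under 0.05 in limma. Testing every probe with no filter on dim ones gave 59 (52 and 7). Dropping the fold-change criterion gave 382 (255 and 127), a criterion of 2 gave 85 (74 and 11), and limma-trend with robust variances gave 303 (191 and 112), 216 of them shared with the 228. Leaving out 1 array gave 65 to 137 calls, 52 to 106 of them higher and 10 to 31 lower. The count of genes above IL1b, TNFa and TGFb1 fell from 34 to 18 without slide and run. Normexp, quantile and median scaling, the percentile over detected probes, probes detected on all 15 arrays and all spots kept gave 180 to 227 calls.

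Of 79 named genes called, 13 remained called without slide and run, 24 to 51 with 1 array left out, and no fold-change of any turned its sign under any alternative. Every gene called without slide and run was put among the named genes, so that the share of 13 in 79 follows from that choice. Over all genes, with 1 probe a gene, 146 were called and 13 without slide and run. Dropping the blocks altered the error and not the fold-change, whereas leaving out an array moved both, and the cause of those losses was not tested. With 3 arrays a group the precision is limited by their number.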

Other observations

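Other called genes lay outside the lists, and those given here were chosen after their values were seen. They are single genes with no list behind them, and nothing is read from them about a group. *Gcnt2*, which branches polylactosamine chains, rose by 1.49 (q = 0.00621) on the log2 scale, with 1.59 (q = 0.0026) on a second probe. *Man1a*, a Golgi mannosidase, rose by 1.21 (q = 0.00241), *Galnt9*, which starts O-glycans, by 1.34 (q = 0.0403), *Pxylp1*, a xylose phosphatase of proteoglycan linkers, by 1.33 (q = 0.0026) and *Csgalnact1*, which starts chondroitin sulfate chains, by 0.69 (q = 0.0026). *Chst2*, a sulfotransferase, rose by 0.65 (q = 0.0488) and *Gfpt2*, which makes hexosamine precursors, by 0.62 (q = 0.022). *Man1a*, *Pxylp1* and *Csgalnact1* were called whichever array was left out. *St3gal4*, a sialyltransferase, was not called on its brighter probe, at 0.15 (q = 0.602), and was called on another at 0.63 (q = 0.0369), a call kept only without IL-6 array 3. The *Gcnt2* probe given first lost its call without control 6 (q = 0.0565), *Galnt9* without each of the 6 arrays (q up to 0.173), *Chst2* without each but IL-6 array 3 (q up to 0.178) and *Gfpt2* without each but IL-6 array 13 (q up to 0.136).

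*Casp4*, an inflammatory caspase, rose by 0.73 (q = 0.0121), and *Casp12* by 0.89 (q = 0.0164) with a second probe at 0.97 (q = 0.0024). *Pros1*, the anticoagulant protein S, rose by 0.92 (q = 0.00181) and *Sgk1*, a kinase induced by serum and glucocorticoids, by 0.82 (q = 0.00241). *Agtr2*, the type 2 angiotensin receptor, was called lower at −1.47 (q = 0.00357), but its groups overlapped. Its levels were 3.35, 5.57 and 3.33 on controls 1, 6 and 11 and 1.91, 3.71 and 2.21 on IL-6 arrays 3, 8 and 13. The difference was −0.53 on slide 1 and −3.36 on slide 2, where the 2 arrays are of different runs. Within runs 1, 2 and 3 the difference was −1.43, −1.86 and −1.12. With neither slide nor run in the model, *Agtr2* was not called. *Pros1*, *Sgk1* and *Agtr2* were called whichever array was left out, *Casp4* was lost without each of the controls (q = 0.0507 to 0.0922), and the first *Casp12* probe in each of the 6 fits (q up to 0.11). Of the 160 probes called higher, IL-6 array 8 was the highest of the IL-6 arrays in 101, array 3 in 34 and array 13 in 25. Another 44 called probes, 40 of them higher, had no gene name.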
